A study of Homo sapiens with 2 samples.

Results

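The miR-15/16 family is a set of small regulatory RNAs that share the core AGCAGC near the 5′ end. Its members were taken by name from the array tables: hsa-miR-15a-5p, hsa-miR-15b-5p, hsa-miR-16-5p, hsa-miR-195-5p, hsa-miR-424-5p, hsa-miR-497-5p and hsa-miR-503-5p. All 7 had a probe, out of 2565 human miRNA probes. The array was a Toray 3D-Gene slide read in 1 colour (Cy5), loaded per the labels with 250 ng of labelled total RNA. The luteolin group was 22Rv1, a human prostate cancer line, kept in RPMI1640 and given 25 µM of the plant flavone luteolin, and the control group was the same line without treatment. Both were taken at 48 h. Each group was 1 array with 1 spot per miRNA, so no test between the groups could be run, and every difference below describes this pair of arrays. Errors written as ± are standard errors of a log2 ratio from the spread between repeated control spots and blank spots within an array, and cover neither cultures nor arrays. RNA was loaded by mass, so a change per cell cannot be told apart from a change in the other RNAs of the cell.

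A miRNA guides the silencing complex to messenger RNAs that pair with its seed, bases 2 to 8 counted from the 5′ end. Through that seed the miR-15/16 family is known to repress G1 cyclins, CDK6 and the survival factor BCL2, and to slow entry into the cell cycle. The miR-15a and miR-16-1 locus on chromosome 13 is well known as a deleted tumour suppressor in chronic lymphocytic leukaemia, and its loss has been described in prostate cancer.

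The mature sequences are shown because they define the family and show how closely its probes' targets resemble each other. They are RefSeq sequences, which matched all 7 members, with the seed in capitals.
hsa-miR-15a-5p: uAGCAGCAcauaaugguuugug
hsa-miR-15b-5p: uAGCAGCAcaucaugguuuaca
hsa-miR-16-5p: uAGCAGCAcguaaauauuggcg
hsa-miR-195-5p: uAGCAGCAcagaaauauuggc
hsa-miR-497-5p: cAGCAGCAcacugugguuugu
hsa-miR-424-5p: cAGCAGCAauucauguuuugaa
hsa-miR-503-5p: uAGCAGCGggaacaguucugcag
The first 6 of these carry the same 7-base seed, and miR-503-5p differs from them in its last seed base. Counted position by position from the 5′ end, miR-16-5p and miR-195-5p were the most alike, with 19 of 21 bases the same. MiR-15a-5p and miR-15b-5p matched at 18 of 22 bases, and miR-15a-5p and miR-497-5p at 17 of 21. The least alike were miR-497-5p and miR-503-5p, with 10 of 21. How far the probes cross-hybridise between such close sequences was not tested.

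The 7 miRNAs come from 8 hairpins in 4 pairs (RefSeq, GRCh38.p14). MIR15A (chr13:50049119-50049201) and MIR16-1 (chr13:50048973-50049061) lie 57 bases apart on the minus strand, within the annotated span of the long noncoding gene DLEU2. MIR15B (chr3:160404588-160404685) and MIR16-2 (chr3:160404745-160404825) lie 59 bases apart on the plus strand, within the span of SMC4, which encodes a condensin subunit. MIR195 (chr17:7017615-7017701) and MIR497 (chr17:7017911-7018022) lie 209 bases apart on the minus strand, within the noncoding gene MIR497HG. MIR424 (chrX:134546614-134546711) and MIR503 (chrX:134546328-134546398) lie 215 bases apart on the minus strand, and MIR503 falls within MIR503HG.

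Mature miR-16-5p is made from both MIR16-1 and MIR16-2. Their hairpins are shown with that shared arm in capitals, because 1 probe reads the product of both loci.
MIR16-1: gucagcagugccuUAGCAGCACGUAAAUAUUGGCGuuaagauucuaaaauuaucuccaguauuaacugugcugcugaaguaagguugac
MIR16-2: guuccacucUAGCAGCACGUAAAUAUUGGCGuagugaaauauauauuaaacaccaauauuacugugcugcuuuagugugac
The capitals are identical in both, so the array cannot assign miR-16-5p to chromosome 13 or chromosome 3. The lower-case 3′ arms differ, and each has a probe of its own, described below.

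Signals are read here against 2 limits. A miRNA counted as detected when its raw signal exceeded the trimmed mean of the 320 blank spots by more than 2 SD, which meant 67.3 units on the luteolin array and 84.0 on the control array. The stricter limit was the highest of the Negative Control spots, 69.4 units on the luteolin array and 93.7 on the control array. On the luteolin array 984 miRNAs were detected, on the control array 811, and on both 701. Of these 701, 310 also passed the stricter limit on both arrays. As a check of the cell label, 5 of 7 luminal prostate markers were detected on both arrays, against 701 of all 2565 miRNAs. The levels of these 5 summed to 2458 (luteolin) and 1611 (control). Of this, miR-200c-3p held 1368 (luteolin) and 1243 (control), and miR-375 held 58.2 and 45.7. Whether these markers set this line apart from other epithelial cells was not tested. Of 7 muscle and stromal markers 0 were detected on both arrays, and of 8 blood and endothelial markers 1 was, miR-451a at levels of 22.1 (luteolin) and 39.8 (control).

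In the family, 5 members passed the stricter limit on both arrays, and miR-424-5p and miR-503-5p did not. All 5 had a higher level on the luteolin array once the arrays were scaled as the authors scaled them, and 3 of the 5 (miR-15a-5p, miR-16-5p and miR-497-5p) were at least 2-fold higher. Among all 701 miRNAs detected on both arrays, 13.4% passed the 2-fold rule upwards and 5.14% downwards. Among the 310 above the Negative Control spots, the shares were 18.4% upwards and 0.645% downwards, and no member passed downwards. The median log2 ratio of luteolin over control was 1.10 over the 5 members, against 0.04 over the 310 miRNAs and 0 over the 701. That last value is 0 by construction of the authors' scaling.

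The number of members past the 2-fold rule depended on how the arrays were scaled, and so did the share of all miRNAs. With spike-in scaling all 5 members passed upwards, as did 40.2% of all miRNAs detected on both arrays, and 0 passed downwards. Without the authors' last adjustment 4 members passed upwards against 20.5% of all miRNAs (2.71% downwards), and with 75th percentile scaling 4 members against 19.3% (3.14% downwards). With Negative Control 1 as background it was 2 members against 23.8% of 445 miRNAs (8.76% downwards), and with quantile scaling of the blank-subtracted signals 1 member against 8.42% (4.85% downwards). With no scaling 0 members passed against 3.14% upwards and 23.5% downwards. With normexp background correction and quantile normalization, 0 members passed against 0.143% of all miRNAs at an offset of 50 and 0.571% at an offset of 16, with 0 downwards in either. No member passed downwards under any of these settings.

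From the chromosome 13 pair, miR-15a-5p (MIMAT0000068) gave a raw signal of 106 units on the luteolin array and 104 on the control array. Above the blanks, which differed between the arrays, this was 40.1 units with luteolin and 22.6 in the control. The level on the authors' scale was 186 with luteolin against 68.6 in the control. The spot thus stood further above its own background on the luteolin array, although the raw readings nearly coincide. The log2 ratio of 1.44 ± 0.17, or 2.71-fold higher, was the largest of the family on this scale and 22nd of the 310 miRNAs above the Negative Control spots.

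MiR-16-5p (MIMAT0000069), the member most often measured and an abundant repressor of cyclins, was the brightest of the family. Its raw signal was 391 units with luteolin and 294 in the control. The level was 1506 with luteolin and 646 in the control, a log2 ratio of 1.22 ± 0.14 or 2.33-fold. It lay 550.3 blank SDs above the blank mean with luteolin and 143 in the control, the furthest of the family. Its place by raw signal among all 2565 probes was 19 on the luteolin array and 32 on the control array, a comparison that needs no scaling between arrays.

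The chromosome 3 partner miR-15b-5p (MIMAT0000417) stood apart from the rest. It was the 1 member among the 5 whose signal above the blanks was lower on the luteolin array, at 36.2 units against 43.6 units on the control array. These signals are not scaled between arrays. Without scaling, the median log2 ratio over the 701 miRNAs detected on both arrays was -0.61, below the -0.27 of miR-15b-5p. After the authors' scaling its level was 167 with luteolin and 132 in the control, a log2 ratio of 0.34 ± 0.15, which ranked 108th of the 310 miRNAs above the Negative Control spots. The sign of that ratio depended on the scaling: it ranged from -0.27 with no scaling between arrays to 1.15 with spike-in scaling, and lay below 0 under 5 of 9 alternatives. These are not independent checks. The Negative Control filter leaves each member's ratio unchanged, and alternatives with 1 factor per array shift all miRNAs alike. Its place by raw signal was 127 with luteolin and 119 in the control. By that measure miR-15b-5p ranked slightly lower with luteolin, whereas the other 4 members ranked higher.

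From the chromosome 17 pair, miR-195-5p (MIMAT0000461) had a level of 260 with luteolin and 135 in the control. Its log2 ratio of 0.95 ± 0.15, or 1.93-fold, lay just under the 2-fold rule by less than its error. MiR-497-5p (MIMAT0002820) had a level of 110 with luteolin and 51.5 in the control. At 1.10 ± 0.19, or 2.14-fold, it lay just above that rule, again by less than its error. Both are described as repressors of cyclins, and the gap between their log2 ratios, 0.15 ± 0.24, lay within its error, with a 95% interval from -0.32 to 0.62. MiR-497-5p was also the dimmest of the 5, with a raw control signal of 98.0 units against 93.7 for the highest Negative Control spot. By raw signal miR-195-5p ranked 84 with luteolin and 116 in the control, miR-497-5p 158 and 259, and miR-15a-5p 116 and 209, in the same order of arrays.

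**Figure D1:**
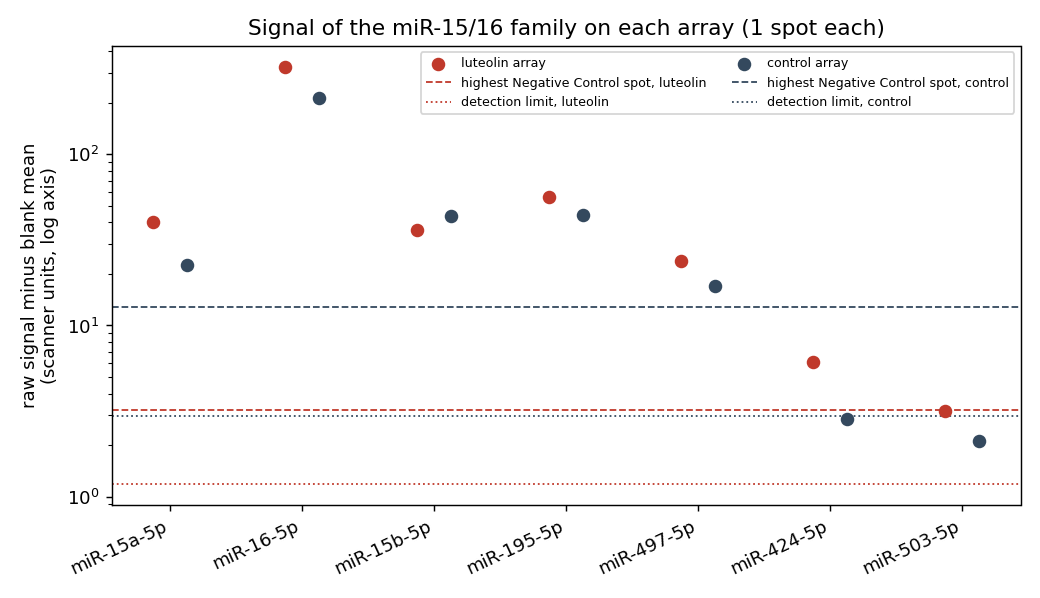
Raw signal minus the blank mean (scanner units, log axis) for the 7 members, luteolin in red and control in dark blue, 1 spot each, with each array's highest Negative Control spot (dashed) and detection limit (dotted). For miR-15a-5p, miR-16-5p, miR-195-5p and miR-497-5p the luteolin point is higher, for miR-15b-5p the control point is (36.2 with luteolin against 43.6), and the control points of miR-424-5p and miR-503-5p lie below the control array's detection limit. The signals are not scaled between arrays, and without scaling the median log2 ratio over the 701 miRNAs detected on both was -0.61.

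The X-linked pair was near background. MiR-424-5p (MIMAT0001341), a repressor of cell cycle genes that is also studied in hypoxia, gave 72.2 raw units with luteolin and 83.8 in the control. The first value exceeded every Negative Control spot of its array, and the second lay just under the detection limit of 84.0. MiR-503-5p (MIMAT0002874) gave 69.3 units with luteolin and 83.1 in the control. The luteolin reading lay above the blanks but just below the highest Negative Control spot, and the control reading was not detected. No fold is given for either. On the authors' scale the luteolin levels were 28.2 for miR-424-5p and 14.6 for miR-503-5p, both below the 38.7 to which the control array's highest Negative Control spot corresponds. The detection limit lay 1.18 units above the blanks on the luteolin array and 2.97 units on the control array, so being listed on the luteolin array alone does not compare the levels.

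Differences between members need less from the scaling than the ratios themselves, because any single factor per array cancels. Of the 10 pairs among the 5 members, 5 differed by more than 2 standard errors. The 4 widest all set another member against miR-15b-5p: miR-15a-5p by 1.10 ± 0.23, miR-16-5p by 0.88 ± 0.20, miR-497-5p by 0.75 ± 0.24 and miR-195-5p by 0.61 ± 0.21 on the log2 scale. The fifth was miR-15a-5p over miR-195-5p, by 0.49 ± 0.22, a gap that was 0.12 with normexp, an offset of 50 and quantile normalization and 0.76 with Negative Control 1 as the background. These errors hold spot noise only, so whether the spread between members would recur in other cultures was not tested. The share of all miRNA pairs that differ by more than 2 standard errors was not computed. Log2 ratios over the 701 miRNAs detected on both arrays ran from -1.75 to 2.67, so the count of 5 pairs does not single out this family. An alternative that applies 1 factor per array cannot change the order of the members, nor can the Negative Control filter, which dropped no member. Those that can are quantile scaling, either normexp offset and Negative Control 1 as background. In these and on the authors' scale, miR-15b-5p had the lowest ratio of the 5. MiR-15a-5p had the highest in all but 1, normexp with an offset of 50 and quantile normalization, where miR-16-5p stood at 0.52 and miR-15a-5p at 0.40. Under that setting, which alters background, offset and normalization at once, the gap between miR-15a-5p and miR-15b-5p was 0.45, and with Negative Control 1 as the background it was 1.39. The gaps of miR-16-5p, miR-497-5p and miR-195-5p over miR-15b-5p were 0.57, 0.29 and 0.33 under the first of these settings, and 0.74, 1.24 and 0.63 under the second.

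The partners from 1 locus can be set side by side. On chromosome 13, miR-15a-5p and miR-16-5p differed by 0.21 ± 0.22, with a 95% interval from -0.22 to 0.64. On chromosome 3, miR-16-5p and miR-15b-5p differed by the 0.88 given above. Since miR-16-5p pools the output of both loci, the array does not show whether the MIR16-2 product followed miR-15b-5p or the other members.

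**Figure D2:**
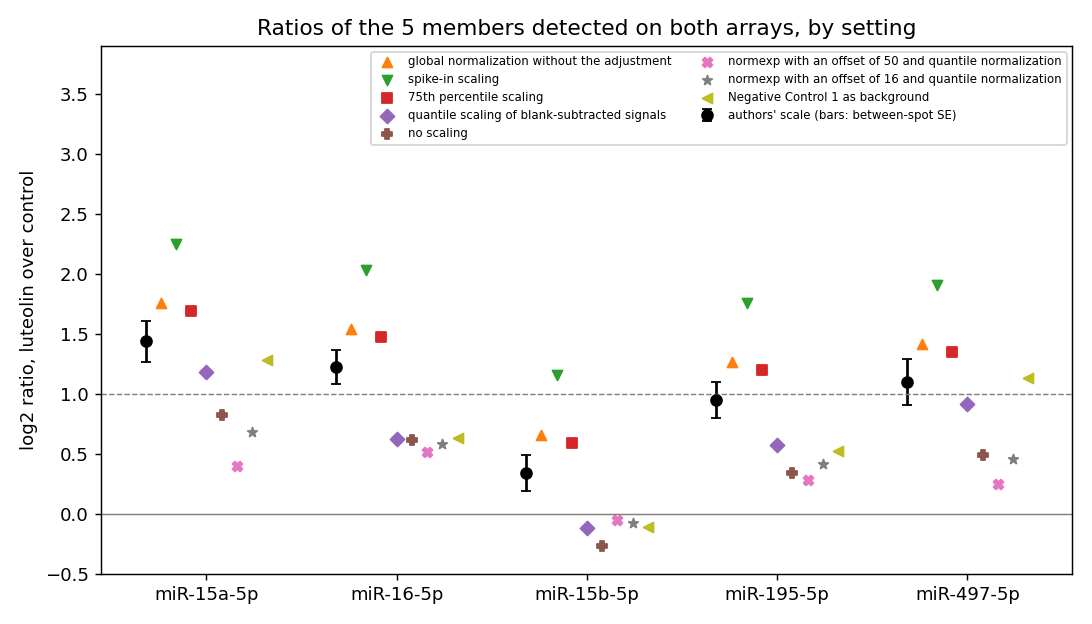
Log2 ratio of luteolin over control for the 5 members detected on both arrays, under the authors' scale (black, bars are between-spot standard errors) and 8 other settings. The dashed line marks 2-fold. MiR-15b-5p is lowest in every setting drawn, and the other 4 members stay above 0 in all of them.

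The opposite arms of the same hairpins, usually the degraded strand, were near background. Of the 8 arms on the array, 2 were detected with luteolin and 0 in the control, against 38.4% and 31.6% of all 2565 miRNAs. None of the arms exceeded the Negative Control spots on either array, against 592 (luteolin) and 310 (control) of all miRNAs. Their raw signals ran from 64.6 to 68.4 units with luteolin and from 75.6 to 83.4 in the control. The 2 listed ones both come from the chromosome 3 locus: hsa-miR-15b-3p at 68.4 units with luteolin and 80.4 in the control, and hsa-miR-16-2-3p at 68.3 with luteolin and 81.1 in the control. The chromosome 13 counterpart hsa-miR-16-1-3p gave 67.3 with luteolin and 83.4 in the control, undetected on both. At this depth the 3p arms therefore cannot assign miR-16-5p to a locus. Of the 7 other mature arms of the X-linked cluster, from MIR542, MIR450A and MIR450B, 1 was detected with luteolin and 0 in the control. The shares of all miRNAs are those given above. The 1 detected arm was hsa-miR-450a-5p, at 67.5 units with luteolin and 81.4 in the control, also within the Negative Control range.

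AGCAGC was also searched at bases 2 to 7 and at bases 1 to 6 of the other miRNAs on the array, where 2253 of the 2565 probes had a RefSeq sequence, and 4 more miRNAs held it. They are shown with that core in capitals, because 2 of them hold it where the family does and the other 2 hold it 1 base further 5′.
hsa-miR-103a-3p: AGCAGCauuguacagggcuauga
hsa-miR-107: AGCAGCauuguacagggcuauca
hsa-miR-6838-5p: aAGCAGCaguggcaagacuccu
hsa-miR-646: aAGCAGCugccucugaggc
MiR-6838-5p has the full 7-base seed of the family. It gave 68.4 raw units with luteolin and 78.0 in the control, within or below the Negative Control range on both arrays, and miR-646 was not detected on either. MiR-103a-3p and miR-107, intronic miRNAs of the pantothenate kinase genes and the pair with the shifted core, were bright. MiR-103a-3p had a level of 677 with luteolin and 403 in the control, a log2 ratio of 0.75 ± 0.14, and miR-107 had 550 with luteolin and 316 in the control, at 0.80 ± 0.14. Both values lie between those of miR-15b-5p and miR-195-5p.

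Other miRNAs known to restrain G1 regulators were given from a list of 18, chiefly the let-7 and miR-26 families and miR-34. Of these, 12 were detected on both arrays, with a median log2 ratio of 1.22, and 10 passed the 2-fold rule upwards and 0 downwards, against 13.4% upwards and 5.14% downwards of all 701. The number passing upwards was lowest with either offset, at 0, beside 0.143% (offset of 50) and 0.571% (offset of 16) of all miRNAs. It was highest, at 12, with spike-in scaling (40.2% of all miRNAs) and without the authors' last adjustment (20.5%). Most of the 12 are from the let-7 family, and cross-hybridisation between their probes was not tested. Past the stricter limit on both arrays, which miR-34a-5p missed in the control, 9 of 11 passed upwards on the authors' scale, against 18.4% of 310 miRNAs. Of the 4 with the highest luteolin level, let-7a-5p stood at 2190 with luteolin and 1028 in the control (1.09 ± 0.14), let-7d-5p at 1.22 ± 0.14, let-7b-5p at 0.70 ± 0.14 and let-7f-5p at 1.38 ± 0.14. Of 8 miRNAs of opposite known effect, which repress the CDK inhibitors p21 or p27, 7 were detected on both arrays, with a median of 0.98, and 3 passed the rule upwards and 0 downwards, beside the same shares of all 701. Their number passing upwards ran from 0, with either offset, quantile scaling or no scaling, to 7 with spike-in scaling. Of all miRNAs, 8.42% passed upwards with quantile scaling, 3.14% with no scaling and 40.2% with spike-in scaling. Most of the 7 detected are from the miR-17 seed family, and cross-hybridisation between their probes was not tested either. Past the stricter limit on both arrays, 3 of 6 passed upwards on the authors' scale. The 4 with the highest luteolin level were miR-17-5p, at 1440 with luteolin and 744 in the control (0.95 ± 0.14), miR-106a-5p at 0.98 ± 0.14, miR-93-5p at 0.55 ± 0.14 and miR-20a-5p at 1.12 ± 0.14.

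**Figure D3:**
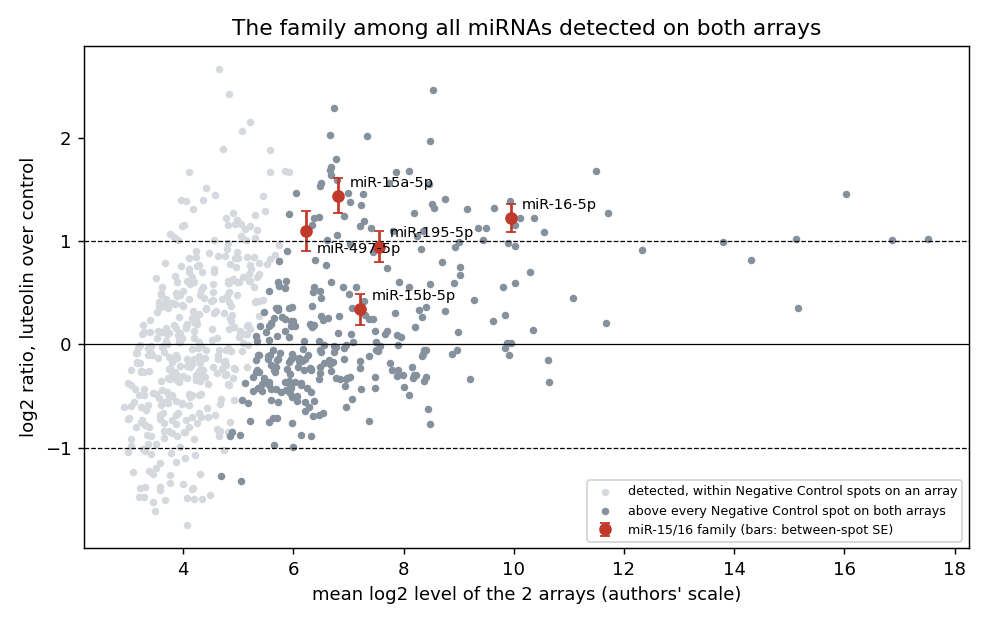
Log2 ratio of luteolin over control against the mean log2 level of both arrays, on the authors' scale, for the 701 miRNAs detected on both arrays. The 5 members (red, bars are between-spot standard errors) lie above 0, with miR-15a-5p, miR-16-5p and miR-497-5p above the 2-fold line at 1 and miR-15b-5p at 0.34.

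The miRNAs most like each member in level on both arrays were found by distance in log2 level over these 2 arrays. For miR-16-5p the nearest were let-7c-5p, at a distance of 0.11, and let-7f-5p, at 0.12. For miR-15a-5p they were hsa-miR-6777-5p (0.12) and hsa-miR-5739 (0.21), and for miR-15b-5p hsa-miR-425-5p (0.11) and hsa-miR-6780b-5p (0.14). For miR-195-5p they were hsa-miR-30c-5p (0.15) and hsa-miR-487b-3p (0.23), and for miR-497-5p hsa-miR-4695-3p (0.14) and hsa-miR-98-5p (0.21). With 2 arrays, such likeness means only a similar level and ratio.

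Base composition moved with the ratio across the arrays. Of the 310 miRNAs above the Negative Control spots, 270 (87.1%) had a RefSeq sequence, and across these the log2 ratio and the share of G and C bases had a Pearson r of -0.46 and a Spearman rho of -0.43. Across the 607 with a sequence among all 701 detected on both arrays, r was -0.29 and rho -0.22. These points share 2 arrays and their labelling reactions. The 5 members held 40.9% to 52.4% G and C, against a median of 62.2% for the 270. The 63 other miRNAs within that range had a median log2 ratio of 0.55, and 17 of them were at least 2-fold higher. Without the stricter limit, the 125 in that range had a median of 0.26, with 24 at least 2-fold higher. Above that range, the 188 past the stricter limit had a median of -0.09, with 19 at least 2-fold higher. Without that limit, the 448 above the range had a median of -0.10, with 36 at least 2-fold higher. MiR-15a-5p and miR-15b-5p have the same G and C share, 40.9%, and the widest gap in ratio of the family on the authors' scale. Each is 1 spot per array, and the part of base composition in the family's ratios was not tested.

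**Figure D4:**
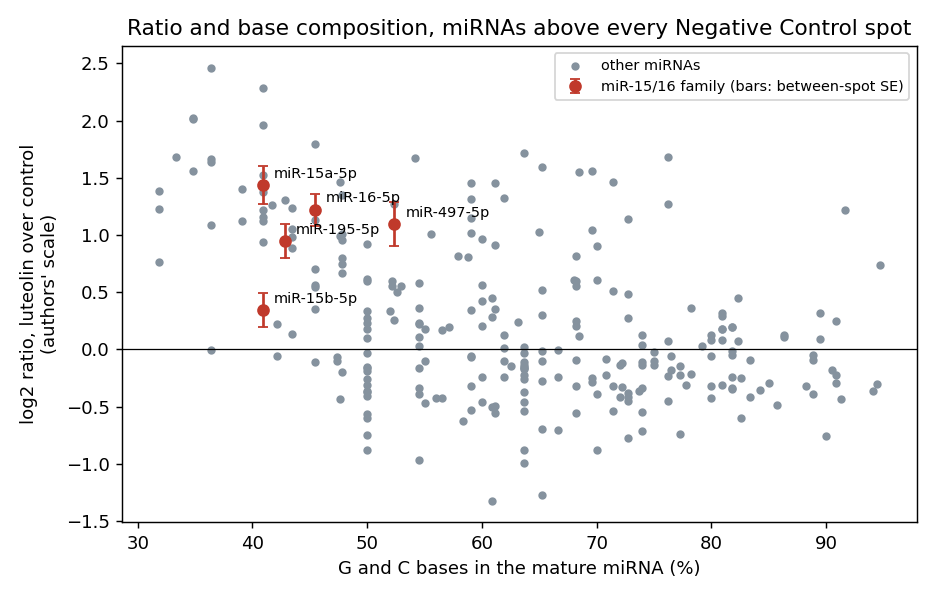
Log2 ratio of luteolin over control (authors' scale) against the share of G and C bases in the mature miRNA, for the 270 miRNAs above every Negative Control spot with a RefSeq sequence. The 5 members (red, bars are between-spot standard errors) lie between 40.9% and 52.4%, where other miRNAs also tend to have ratios above 0.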

How the data were processed

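Each array file holds scanner intensity deposited by the authors as raw, background-subtracted and globally normalized values, per the file headers. The values show that the authors subtracted the blank mean after trimming 5% at each end, listed only signals more than 2 SD above it, and multiplied the rest by 3.03 (control) or 5.77 (luteolin). A further factor of 0.803 gave the adjusted luteolin intensity. The deposited summary table equals the adjusted luteolin and normalized control values for all 2565 miRNAs. These values, the authors' scale, were used as the main setting. The scanner and its software are not given in the sources used here.

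Each standard error of a log2 ratio combined the blank SD with the coefficient of variation of 5 bright control probes, 6.23% on the luteolin array and 7.34% on the control array. There were 9 alternatives to scaling, background and filter. Sequences came from RefSeq tables (GRCh38.p14), which matched 2253 of 2565 probes by name. Named miRNAs were all members, their opposite arms, seed relatives, cluster neighbours, 2 lists of cell cycle miRNAs (at most 4 named each by luteolin level) and the 2 nearest in level. The members and lists were chosen with earlier results of these data known. The arithmetic was tested on simulated arrays with the same spot errors as the standard error assumes, 1 factor per array and no trend by base composition. Such a test cannot show a bias from base composition. Tools were Python 3.11.15, numpy 2.4.6, pandas 2.3.3, scipy 1.17.1, matplotlib 3.10.9, R 4.3.3 and limma 3.58.1. With 1 array per group, treatment cannot be told apart from array, labelling reaction or culture, and no precision between groups could be estimated.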

Additional observations from a re-analysis of the deposited data

How the results depend on the processing

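The number of members at least 2-fold lower was 0 under the authors' scale and all 9 alternatives. Of all miRNAs compared, 0 passed downwards with spike-in scaling or with either offset, so a count of 0 members says little there. The share downwards was 23.5% with no scaling and from 0.645% to 8.76% in the other settings. The median log2 ratio of luteolin over control, 1.10 on the authors' scale, stayed above 0 throughout: it was 1.41 without the authors' adjustment, 1.35 with 75th percentile scaling, 1.91 with spike-in scaling, 0.63 with quantile scaling of blank-subtracted signals, 0.49 with no scaling, 0.63 with Negative Control 1 as background, 0.28 with normexp and an offset of 50, and 0.45 with an offset of 16. The median over all miRNAs moved with most of these, to 0.32, 0.25, 0.81, -0.08, -0.61, 0, -0.02 and -0.04 in the same order. In place of the 3 members at least 2-fold higher, 5 were counted with spike-in scaling. The count was 4 without the authors' adjustment or with 75th percentile scaling, and 2 with Negative Control 1 as background. It was 1 with quantile scaling of blank-subtracted signals, and 0 with no scaling or with either offset. The share of all miRNAs past the same rule, given earlier, changed as well. MiR-15b-5p was below 0 with quantile scaling (-0.12), no scaling (-0.27), Negative Control 1 as background (-0.11), an offset of 50 (-0.049) and an offset of 16 (-0.077). The direction of the other 4 members was the same in all 9, of which the Negative Control filter cannot change a ratio. Spike Controls 1 and 2 were 2.68-fold brighter on the control array above the blanks, and the cause was not tested. No paired analysis was possible because each group has 1 array. Dim signal limits miR-424-5p, miR-503-5p and the opposite arms.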
